A study of Mus musculus with 12 samples.

Results

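The genes described here make, move, receive and break down the monoamines dopamine, histamine and serotonin in mouse hypothalamus. They are 10 genes chosen by symbol: *Th*, *Ddc*, *Hdc*, *Slc18a2*, *Slc6a3*, *Drd1*, *Drd2*, *Hrh3*, *Htr2c* and *Maoa*. All 10 had a row in both tables, out of 16855 genes on chow and 16744 on the HFD. Hypothalamus came from male C57BL/6J mice aged 8 weeks, 3 to a group. Both genotypes, WT (+/+) and *Gpr75*-/-, were studied under each of 2 feeding regimens: chow throughout, or a lard-based HFD given for 2 weeks starting at 6 weeks of age. GPR75 is a G protein-coupled receptor, and the allele is a CRISPR/Cas9 change after which translation ends early. Since the allele changes what is translated, the mRNA level was not used as a check of the labels. *Gpr75* was at 16.7 CPM in WT and 24.6 CPM in *Gpr75*-/- mice on chow, a fold of 1.47 that 27 of 12413 genes exceeded, and at 19.9 and 18.4 CPM on the HFD. Levels are given in CPM, normalized counts scaled to a common total.

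The values are 1 level per gene and group, and no value of a single mouse entered any result. The mean normalized counts summed to 18280462 on chow and 19420111 on the HFD, so 1 CPM stood for 18.3 and 19.4 normalized counts of an average mouse. Each group level was decoded from an authors' group value rounded to 2 decimals, and the range given beside a ratio is the range that this rounding allows. It is not a confidence interval, and no p-value is given. Decoded levels near 1 CPM are rough, and for *En1* and *Cga* both group levels lay above the arithmetic mean over the mice. The mean over the 6 mice of a table is arithmetic, and the group levels were taken to be means of logs, which no source states. If so, the gap between them grows with the spread between mice of a group. A constant per table, the median gap of genes between 5 and 100 CPM, was first taken off, and with it any spread common to most genes. An approximate SD and a standard error (SE) of the log2 ratio were taken from the rest, where it was larger than rounding. Otherwise only its upper bound is given. These bounds, written below as at most or up to, cover rounding alone and can be too small. For *Pts* on chow the bound on the SD came to 0. The SD and the SE take the spread as equal in the 2 groups, and both rest on that reading of the group levels. A gene is counted as past the limit when its ratio of *Gpr75*-/- over WT exceeded 1.2-fold, a log2 ratio of 0.26, in either direction.

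Dopamine is made from tyrosine by tyrosine hydroxylase, the rate-limiting enzyme, and then by aromatic L-amino acid decarboxylase. Histamine is made from histidine by histidine decarboxylase, in the brain almost wholly in neurons of the tuberomammillary nucleus of the posterior hypothalamus. All monoamines are loaded into vesicles by the same transporter, and dopamine is taken back up by its own. In the hypothalamus, dopamine neurons of the arcuate nucleus restrain prolactin release, histamine promotes wakefulness and reduces feeding, and serotonin reduces feeding in part through the 2C receptor.

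The start regions of 4 of these genes are shown because *Th*, *Slc6a3* and *Drd2* were lower in chow-fed *Gpr75*-/- mice and *Hdc* was higher in HFD-fed ones. *Drd1*, which was also lower, has 2 RefSeq starts, and its windows are not printed. Each is the 250 bases before a RefSeq start on GRCm38.p6, read 5′ to 3′ on the gene's strand, with matches to the motifs searched in capitals. They lie at chr7:142899996-142900245 (minus strand), chr13:73536497-73536746 (plus), chr9:49340153-49340402 (plus) and chr2:126618679-126618928 (minus).
Th: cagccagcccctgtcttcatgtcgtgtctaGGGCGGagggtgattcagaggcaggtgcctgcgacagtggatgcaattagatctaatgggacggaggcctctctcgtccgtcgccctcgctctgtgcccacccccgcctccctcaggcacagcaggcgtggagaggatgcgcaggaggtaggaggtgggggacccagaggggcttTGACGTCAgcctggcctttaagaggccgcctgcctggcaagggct
Slc6a3: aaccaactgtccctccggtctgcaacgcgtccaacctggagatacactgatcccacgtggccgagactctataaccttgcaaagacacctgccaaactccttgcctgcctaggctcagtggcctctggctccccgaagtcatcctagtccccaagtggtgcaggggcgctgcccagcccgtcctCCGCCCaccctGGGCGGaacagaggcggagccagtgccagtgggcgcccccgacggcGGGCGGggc
Drd2: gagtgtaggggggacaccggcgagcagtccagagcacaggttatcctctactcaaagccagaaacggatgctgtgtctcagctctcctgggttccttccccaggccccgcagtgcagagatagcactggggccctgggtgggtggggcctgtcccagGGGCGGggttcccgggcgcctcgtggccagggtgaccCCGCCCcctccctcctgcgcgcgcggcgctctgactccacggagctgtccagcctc
Hdc: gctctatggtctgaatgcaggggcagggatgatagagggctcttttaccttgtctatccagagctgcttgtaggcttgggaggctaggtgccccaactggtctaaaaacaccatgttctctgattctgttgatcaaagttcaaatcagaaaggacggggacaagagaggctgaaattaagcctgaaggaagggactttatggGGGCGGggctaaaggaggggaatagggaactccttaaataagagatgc
The motifs searched on both strands were the cAMP response element TGACGTCA, the NR4A element AAAGGTCA, the GC box GGGCGG and the TATA box TATAAA. The cAMP response element was found 45 to 38 bases before the start of *Th* and in no other of the 10 genes, against 1.55% of 32851 windows of the same length. The 10 genes have 12 windows, of which 8 held a GC box, against 32.7% of all windows. The window of *Hrh3* held 4 copies, 2 of which overlap, and that of *Slc6a3* held 3. *Ddc* alone held the NR4A element (1.34% of all windows) and the TATA box (12.4%), in 1 of its 2 windows, where the matches overlap. A match is only a description of the letters.

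Levels between genes were compared per kilobase of the longest transcript. In chow-fed WT mice the order was *Ddc* (17.6 CPM per kilobase), *Htr2c* (16.3), *Th* (16.2), *Maoa* (15.5), *Hrh3* (13.5), *Slc18a2* (11.7), *Drd2* (6.41), *Slc6a3* (6.22), *Hdc* (5.58) and *Drd1* (4.45). The level of *Ddc* was above that of 72.3% of protein-coding genes and the level of *Drd1* above 33.6%. With the range over the 4 groups as the spread, neighbors from *Ddc* to *Maoa* overlapped, as did *Hrh3* with *Slc18a2*, *Drd2* with *Slc6a3* and *Slc6a3* with *Hdc*. *Maoa* and *Hrh3* did not overlap, nor did *Slc18a2* and *Drd2*, or *Hdc* and *Drd1*. The tables were normalized separately, so this range also holds any difference in scaling. With the union of exons as the length, *Maoa* came first and *Ddc* sixth, and with the mean over transcripts *Ddc* and *Htr2c* stayed first and second. The order of *Hdc* and *Drd1* was turned around with the union of exons (3.95 and 4.39 in chow-fed WT mice). That of *Maoa* and *Hrh3* was turned around with the mean over transcripts (15.5 and 25.5).

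**Figure D1:**
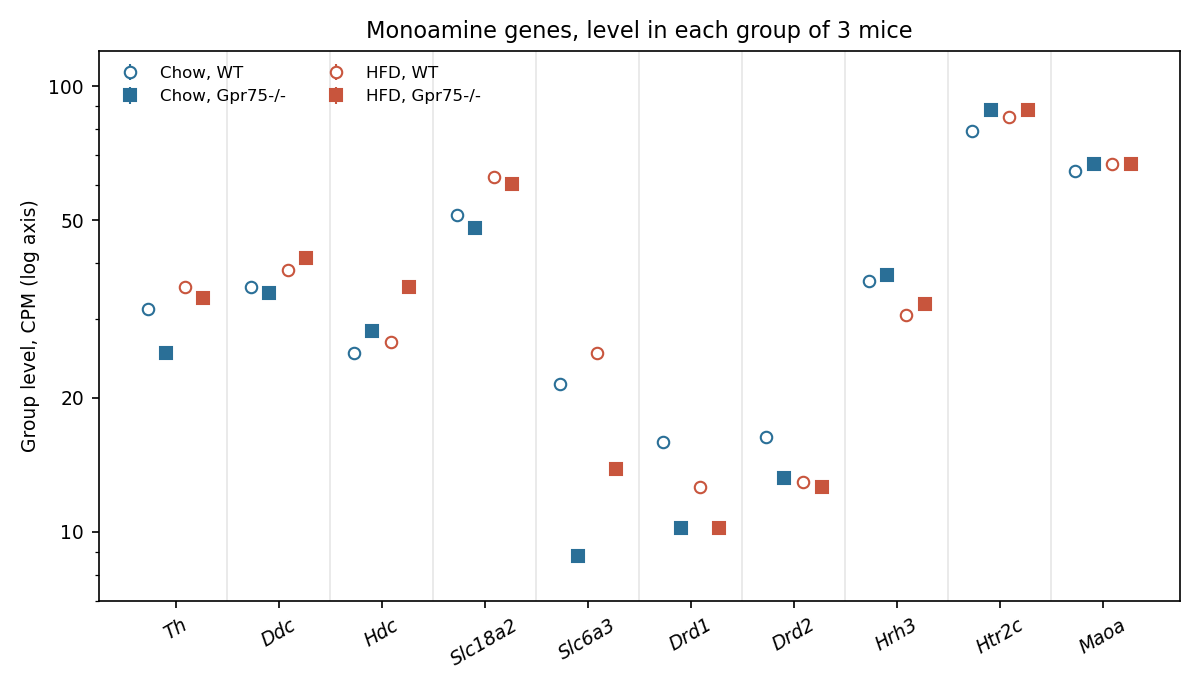
Level of each of the 10 genes in each group of 3 mice, in CPM on a log axis, with WT as open circles, Gpr75-/- as filled squares, chow in blue and HFD in red. Vertical bars, mostly hidden by the symbols, are the range that rounding allows. Slc6a3 was at 21.5 and 8.82 CPM on chow and at 25.2 and 13.8 CPM on the HFD in WT and Gpr75-/- mice.

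On chow, 4 of the 10 genes were past 1.2-fold and all 4 were lower in *Gpr75*-/- mice: *Slc6a3*, *Drd1*, *Th* and *Drd2*. As background, 5.48% of all genes were past the limit in that direction on chow and 6.06% in the other, 11.5% in all. Of the 12413 genes with a mean of at least 100 normalized counts, which all 10 members reached, 2.23% were past it lower and 2.13% higher, 4.37% in all. The median log2 ratio of the 10 genes was -0.07, against 0.00 over all genes. All 4 are among the 6 members of dopamine synthesis, transport and reception, of which *Ddc* and *Slc18a2* were not past the limit. On the HFD, *Slc6a3* and *Drd1* were past 1.2-fold lower (3.91% of all genes, 1.44% of those with a mean of at least 100) and *Hdc* was past it higher (4.83% and 1.39%). In either direction 8.74% of all genes were past the limit there, and 2.83% of those with a mean of at least 100. The median of the 10 genes there was -0.02, against 0.00 over all genes. Each of these 7 differences was past the limit over its whole rounding range.

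**Figure D2:**
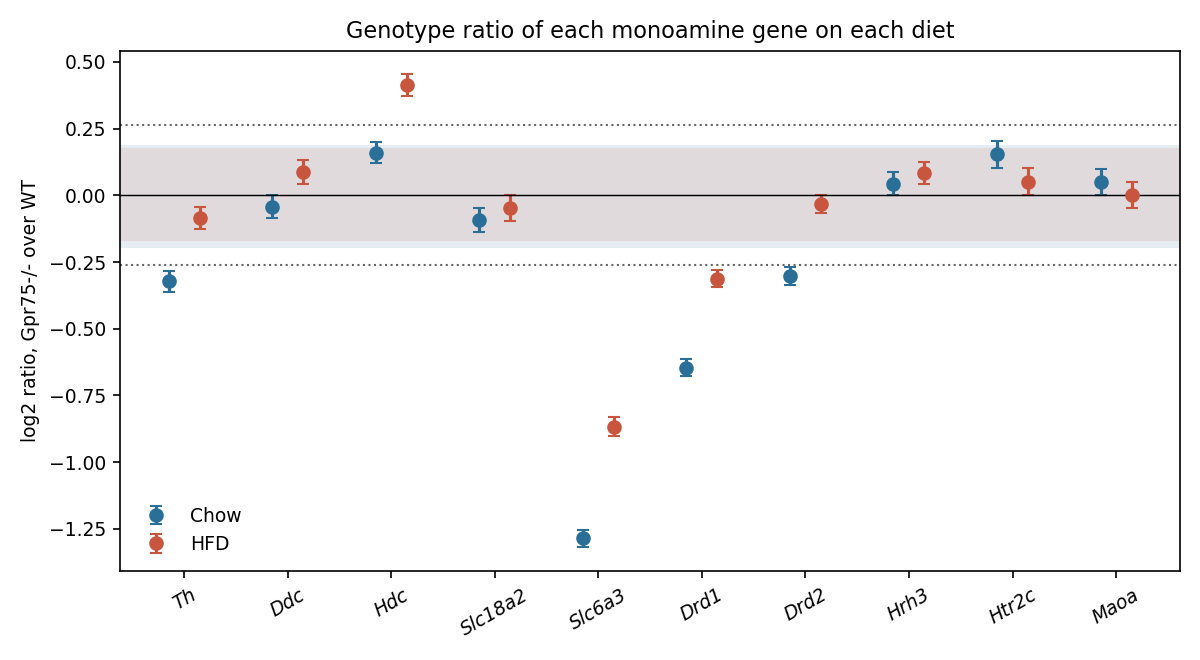
Log2 ratio of Gpr75-/- over WT for each gene on chow (blue) and the HFD (red), with bars for the range that rounding allows, not for the spread between mice. Dotted lines mark 1.2-fold and shaded bands the 5th to 95th percentile of genes with a mean of at least 100 (-0.20 to 0.19 on chow, -0.17 to 0.18 on the HFD). Slc6a3 lies far below both bands on both diets, and Hdc above the band on the HFD.

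*Slc6a3* (ENSMUSG00000021609, chromosome 13, 73684866 to 73726791 on GRCm39) encodes the dopamine transporter, which returns released dopamine to the neuron. On chow it was at 21.5 CPM in WT and 8.82 CPM in *Gpr75*-/- mice, 0.410 of the WT level (0.401 to 0.420, log2 ratio -1.29). A lower ratio was found for 1 of the 12413 genes with a mean of at least 100. On the HFD it was at 25.2 and 13.8 CPM, 0.548 of the WT level (0.535 to 0.562, log2 ratio -0.87), again with 1 gene of 12509 lower. In both tables the gap to the arithmetic mean was also wide. After the constant offset of each table was taken off, the mean of the 2 group levels on chow lay 11.6% below the arithmetic mean over the 6 mice, a gap exceeded by 12 of the 12413 genes, and on the HFD it lay 8.85% below, exceeded by 15 of 12509. The approximate SD within groups was 0.91 log2 units on chow (0.86 to 0.95 from rounding) and 0.78 on the HFD (0.72 to 0.83), with n = 3 per group. The approximate SE of the ratio was thus 0.74 on chow and 0.64 on the HFD, and the log2 ratios were 1.74 and 1.36 times their SE. The mRNA of the transporter was lower in *Gpr75*-/- mice on each diet, in separate sets of WT mice, by 1.36 to 1.74 times the approximate SE. Of the 16438 genes measured on both diets, 0.754% were past 1.2-fold lower on each, as were 0.268% of those with a mean of at least 100 on both, and *Slc6a3* and *Drd1* were the members that were.

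*Slc18a2* (ENSMUSG00000025094, chromosome 19, 59249328 to 59284444), the vesicular monoamine transporter of all monoamine neurons, did not show this difference. It was at 51.3 CPM in WT and 48.1 CPM in *Gpr75*-/- mice on chow (0.938, 0.909 to 0.969), and at 62.4 and 60.4 CPM on the HFD (0.967, 0.935 to 1.0). The gap to the arithmetic mean was within rounding on both diets, which allows an SD of up to 0.41 on chow and 0.37 on the HFD. The transporters thus differed by 1.19 in their log2 ratio on chow and by 0.82 on the HFD. The approximate SE of *Slc6a3* alone was 0.74 and 0.64, and no SE of this difference was worked out.

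The enzymes of dopamine synthesis differed less than *Slc6a3*. *Th* (ENSMUSG00000000214, chromosome 7, 142446489 to 142484865), tyrosine hydroxylase, was at 31.5 CPM in WT and 25.2 CPM in *Gpr75*-/- mice on chow, 0.800 of the WT level (0.778 to 0.822, log2 ratio -0.32). On the HFD it was at 35.4 and 33.4 CPM (0.943, 0.916 to 0.971). The approximate SE on chow was 0.25, and up to 0.35 within rounding, so the log2 ratio was 1.31 times its SE, or 0.93 times at the upper bound. *Ddc* (ENSMUSG00000020182, chromosome 11, 11764101 to 11848144), the decarboxylase shared by dopamine and serotonin synthesis, was at 35.4 CPM in WT and 34.4 CPM in *Gpr75*-/- mice on chow (0.971, 0.943 to 1.0). On the HFD its levels were 38.8 and 41.2 CPM (1.06, 1.03 to 1.10). Of the dopamine genes of synthesis and transport, then, *Slc6a3* and *Th* were past 1.2-fold on chow, *Slc6a3* alone on the HFD, and *Ddc* and *Slc18a2* on neither.

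*Hdc* (ENSMUSG00000027360, chromosome 2, 126435587 to 126461219), which encodes histidine decarboxylase and marks the histamine neurons, was higher in *Gpr75*-/- mice on both diets. It was at 25.2 CPM in WT and 28.2 CPM in *Gpr75*-/- mice on chow (fold 1.12, 1.09 to 1.15, log2 ratio 0.16), which is short of the limit. On the HFD it was at 26.6 and 35.4 CPM (fold 1.33, 1.29 to 1.37, log2 ratio 0.41), with 25 of the 12509 genes of a mean of at least 100 higher. The gap to the arithmetic mean was within rounding on both diets. The SE of the log2 ratio was therefore known only as at most 0.27 on chow and 0.28 on the HFD. The log2 ratio was 0.59 times that bound on chow, and so smaller than it, and 1.45 times on the HFD. Of 10 hypothalamic marker genes, 7 were also past 1.2-fold higher on the HFD, among them *Pmch* and *Hcrt*, and their levels summed to 696 CPM in WT and 846 CPM in *Gpr75*-/- mice. On chow the same markers summed to 694 and 729 CPM, with 1 past the limit higher and 1 lower. The part of these markers in the result for *Hdc* was not tested. In bulk tissue, fewer cells of a type and less RNA per cell cannot be told apart.

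The dopamine receptor genes *Drd1* and *Drd2* were lower in *Gpr75*-/- mice on chow. *Drd1* (ENSMUSG00000021478, chromosome 13, 54205202 to 54209724), which raises cAMP in the cells that carry it, was at 15.9 CPM in WT and 10.2 CPM in *Gpr75*-/- mice on chow, 0.639 of the WT level (0.625 to 0.653, log2 ratio -0.65). The mean of its group levels, less the same offset, lay 15.2% below the arithmetic mean, a gap exceeded by 8 of 12413 genes, and the approximate SD was 1.06 log2 units (1.02 to 1.10). The log2 ratio of *Drd1* on chow was 0.75 times its approximate SE of 0.86, so the difference was smaller than its error. On the HFD it was at 12.6 and 10.2 CPM (0.806, 0.788 to 0.823, log2 ratio -0.31), with a gap within rounding and a ratio of 1.16 times the upper bound of its SE, 0.27.

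*Drd2* (ENSMUSG00000032259, chromosome 9, 49251927 to 49319477), which lowers cAMP and is also the autoreceptor of dopamine neurons, was at 16.3 CPM in WT and 13.2 CPM in *Gpr75*-/- mice on chow, 0.810 of the WT level (0.791 to 0.829, log2 ratio -0.30). Its gap was within rounding. With the constant taken off, its SE was at most 0.16, and its log2 ratio was 1.87 times that bound. The mean of its group levels then lay above the arithmetic mean, so the bound can be too small. On the HFD the levels were 12.9 and 12.6 CPM (0.978, 0.956 to 1.0). On chow the smaller of the 2 receptor differences was thus the larger against its approximate SE.

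*Drd1* and *Drd2* are most abundant in medium spiny neurons of the striatum, and marker genes of those neurons were lower along with them on chow, and 1 of them was on the HFD. All 7 striatal markers reported were lower in *Gpr75*-/- mice on chow, 6 of them past 1.2-fold, with a median log2 ratio of -0.45, and their levels summed to 393 CPM in WT and 306 CPM in *Gpr75*-/- mice. *Ppp1r1b*, which encodes DARPP-32, was at 27.4 and 17.1 CPM. Its ratio was 0.625 and its approximate SD 1.03 log2 units. Over the 7 markers the ratios ran from 0.553 (*Adora2a*) to 0.931 (*Tac1*) and, for the 6 with a gap beyond rounding, the approximate SDs from 0.31 (*Rgs9*) to 1.85 (*Adora2a*). *Penk*, which encodes the enkephalin precursor and is also made in hypothalamus, was at 150 and 106 CPM. On the HFD the 7 markers summed to 310.5 and 335.5 CPM, with 1 past the limit lower, 1 higher and a median log2 ratio of 0.07. Most of the higher sum lay in *Penk*, at 114 and 123 CPM, and in *Tac1*, a tachykinin precursor gene, at 85.2 and 102 CPM. *Ppp1r1b* was there at 14.2 and 14.8 CPM. *Adora2a*, an adenosine receptor gene, was lower along with *Drd1*, at 1.81 and 1.2 CPM (0.666). *Gpr6*, an orphan receptor gene, was past the limit higher, at 4.15 and 5.78 CPM (fold 1.39), and 5 of the 7 markers had ratios above 1. None of the 7 markers was at 0 in any group. The part of striatal tissue in the result for *Drd1* and *Drd2* was not tested.

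**Figure D3:**
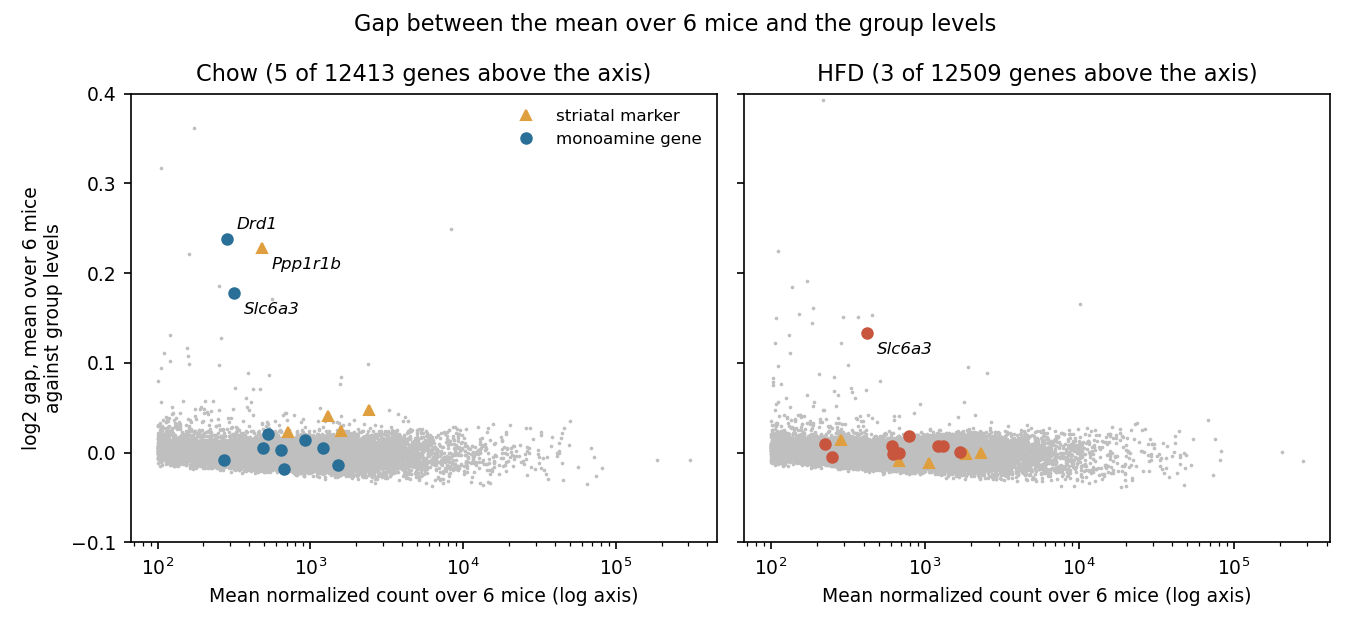
Gap between the arithmetic mean over the 6 mice and the group levels (log2, less the constant of the table) against the mean normalized count on a log axis, for genes with a mean of at least 100 (gray), the monoamine genes (circles) and the striatal markers (triangles). If the group levels are means of logs, the gap grows with the spread between mice. On chow, Drd1, Ppp1r1b and Slc6a3 stand above all but a few genes, and on the HFD Slc6a3 does, while the other monoamine genes lie lower, among them Th on chow with 350 of 12413 genes above it. Genes above the axis are counted over each panel.

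On the HFD both *Slc6a3* and *Drd1* were past 1.2-fold lower, as was 1 of the 7 striatal markers. Of 5 markers of midbrain dopamine neurons, *Aldh1a1* and *Nr4a2* were measured on both diets. *Aldh1a1* was at 106 and 94.9 CPM on chow and at 106 and 110 CPM on the HFD in WT and *Gpr75*-/- mice, and *Nr4a2* at 21.0 and 22.1 CPM and at 23.3 and 23.9 CPM. Neither was past 1.2-fold on either diet. *Chrna6*, a nicotinic receptor subunit gene of midbrain dopamine neurons that was looked at after the values were seen, was past it lower on both, at 0.792 and 0.728 of the WT level. *Slc10a4*, a gene of monoamine and cholinergic neurons looked at in the same way, was also past it lower on both, at 0.649 and 0.771. *En1*, measured on the HFD alone, was near 1 CPM, and *Pitx3* and *Foxa2* were not analyzed here. The markers of the list, without *Chrna6* and *Slc10a4*, summed to 127 and 117 CPM on chow and to 130 and 135 CPM on the HFD. How much of the *Slc6a3* mRNA came from midbrain tissue was not tested.

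The remaining members showed no difference past the limit. *Hrh3* (ENSMUSG00000039059, chromosome 2, 179741258 to 179746281) encodes the H3 receptor, the autoreceptor that restrains histamine release. It was at 36.5 CPM in WT and 37.6 CPM in *Gpr75*-/- mice on chow (fold 1.03, 1.0 to 1.06), and at 30.7 and 32.5 CPM on the HFD (1.06, 1.03 to 1.09). With the constant taken off, the approximate SE was at most 0.09 on chow and 0.23 on the HFD. On chow the mean of its group levels then lay above the arithmetic mean, so 0.09 can be too small. *Hdc* and *Hrh3* thus differed by 0.33 in their log2 ratio on the HFD, where the bound on the SE of *Hdc* was 0.28. No SE of this difference was worked out.

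*Htr2c* (ENSMUSG00000041380, chromosome X, 145745509 to 145980273) encodes the serotonin 2C receptor of hypothalamic neurons and choroid plexus. It was the member with the highest CPM, at 79.4 in WT and 88.3 in *Gpr75*-/- mice on chow (fold 1.11, 1.07 to 1.15), and at 85.2 and 88.3 on the HFD (1.04, 1.0 to 1.07). Of 10 choroid plexus markers, 3 had a WT value listed at 0 on chow and 6 of the other 7 were past 1.2-fold higher there, each by less than its approximate SE (0.15 to 0.84 times). Their levels summed to 86.1 CPM in WT and 119.7 CPM in *Gpr75*-/- mice on chow, with a value at 0 counted as 1 CPM. On the HFD 5 of the markers were measured, with 2 past the limit lower, and summed to 76.3 and 80.9 CPM. *Ttr*, the defining marker, was at 5.59 and 12.9 CPM on chow and at 3.60 and 1.35 CPM on the HFD. On chow its arithmetic mean over the 6 mice was 159 CPM (2910 normalized counts), far above both group levels. The gap of *Htr2c* to its arithmetic mean was within rounding on chow. The part of choroid plexus in its level was not tested.

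*Maoa* (ENSMUSG00000025037, chromosome X, 16485937 to 16554057) encodes monoamine oxidase A, which degrades serotonin, noradrenaline and dopamine, and was the steadiest of the 10 across the 4 groups. Its levels were 64.6 and 66.8 CPM on chow (fold 1.03, 1.0 to 1.07) and 66.8 CPM in both genotypes on the HFD (fold 1.0, 0.967 to 1.03). The SE was at most 0.30 on each diet.

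The ratios on the diets are set side by side, and their difference was not tested, since the values used hold no single mouse. For *Slc6a3*, *Drd1* and *Drd2* the log2 ratio was higher on the HFD than on chow by 0.42, 0.33 and 0.27, each past 1.2-fold. For *Drd2* the rounding range, 0.21 to 0.34, spans that limit, as do the ranges of *Hdc* and *Th*, so the count of 3 could change within rounding. Of all genes measured on both diets, 15.8% differed that much, and 7.01% of those with a mean of at least 100 on both. For *Slc6a3* and *Drd1* the SE on chow alone exceeds that difference. *Hdc* and *Th* differed by 0.25 and 0.24 and the other members by less.

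Outside the members, 46 further monoamine genes were looked at, of which 30 were measured on chow and 32 on the HFD. None of them was past 1.2-fold on either diet. Their median log2 ratio was 0.04 on chow and -0.03 on the HFD, and their ratios ran from -0.20 to 0.21 and from -0.25 to 0.21. The cofactor enzymes that tyrosine hydroxylase depends on were among them. *Gch1*, the first enzyme of tetrahydrobiopterin synthesis, was at 6.30 CPM in WT and 6.77 CPM in *Gpr75*-/- mice on chow and at 7.28 and 7.02 CPM on the HFD. *Maob*, which encodes monoamine oxidase B, was at 85.2 and 98.4 CPM on chow (fold 1.16) and at 91.5 and 85.2 CPM on the HFD (0.931). In the histamine group, *Hnmt*, which inactivates histamine, was at 34.4 and 36.5 CPM on chow and at 38.8 and 40.0 CPM on the HFD, and the receptor gene *Hrh1* at 23.9 and 27.4 CPM and at 27.4 and 28.2 CPM. *Drd5*, the other receptor of the D1 class, was at 4.4 and 4.47 CPM on chow and at 4.15 and 3.60 CPM on the HFD. Of 17 serotonin genes 10 were measured on chow and 11 on the HFD, with median log2 ratios of 0.06 and -0.02. Adrenergic receptor genes, 8 of 9 measured, had medians of 0.01 and -0.04. *Tph2* and *Slc6a4* of serotonin neurons and *Dbh* of noradrenaline neurons were not analyzed here. Endothelial markers, all 6 measured, were within 1.2-fold on both diets. Of 5 pituitary markers, *Lhb* and *Tshb* were measured on chow, at a sum of 3.25 CPM in WT and 3.06 CPM in *Gpr75*-/- mice, with neither past 1.2-fold. On the HFD *Cga* and *Tshb* were measured, at a sum of 3.11 and 2.71 CPM, with *Tshb* past the limit lower (0.765).

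**Figure D4:**
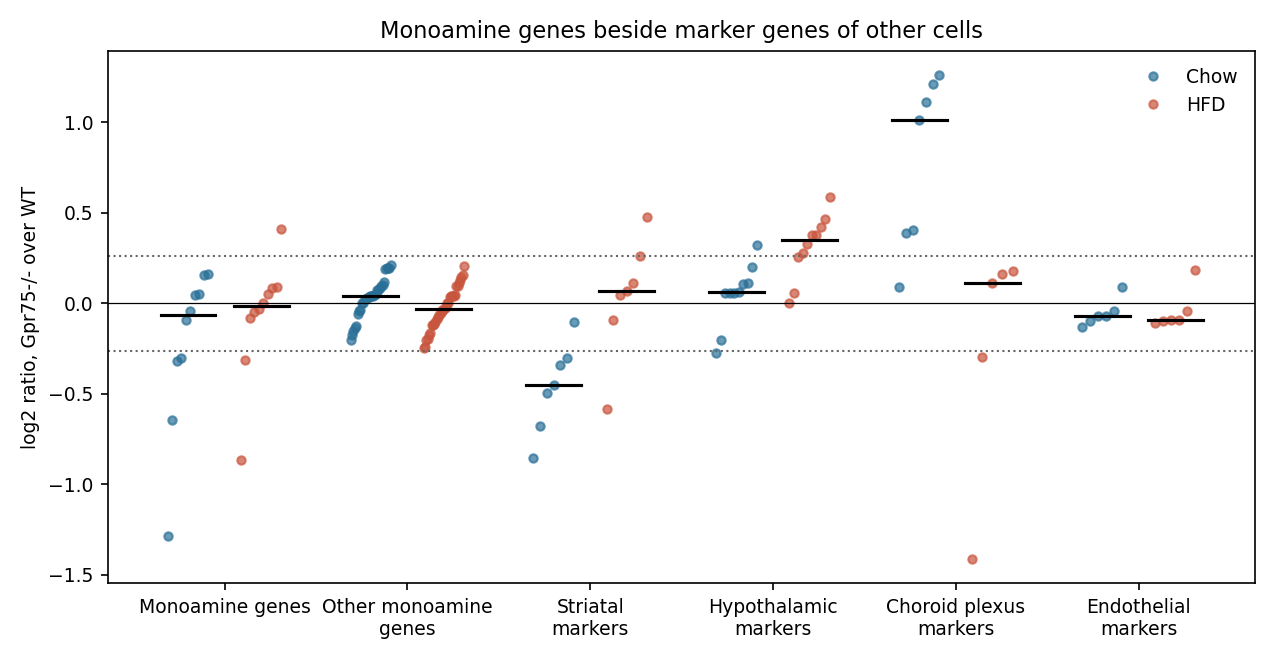
Log2 ratio of Gpr75-/- over WT for each measured gene of 6 lists on chow (blue) and the HFD (red), with black bars at the list medians and dotted lines at 1.2-fold. Genes with a group value listed at 0 are left out. The other monoamine genes all lie within the dotted lines, the striatal markers lie below 0 on chow and on both sides of it on the HFD, and Slc6a3 is the lowest monoamine gene on both diets.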

How the data were processed

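RNA-Seq of hypothalamus was performed on 12 mice in 4 groups of 3. Per the labels, the submitters' processing notes name STAR, featureCounts, StringTie, DESeq2 and GRCm39 (the role of each beyond DESeq2 is not given in the sources used here). DESeq2 was run by the authors on raw counts, 1 diet at a time, and each run left 1 table. The deposited signal averages, over the 6 mice of a table, a gene's counts divided by size factors. The deposited group columns, 1 per genotype and given to 2 decimals, are on a log2 scale whose formula is not given. They followed log2(log2(CPM) + 1), since the decoded values fell within 0.05 (log2) of the mean normalized counts scaled to CPM, after 1 constant per table, for 99.7% and 99.6% of genes with a mean of at least 100. That form was inferred from the values.

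The deposited tables also hold the authors' log2 fold changes, standard errors, Wald statistics and p-values. None of these was used, and no test was possible from the group values, since they hold no single mouse. Tests on counts had been planned for tables with single mice. In their place, ratios of the decoded group levels were computed, with the range that rounding allows and an approximate spread between mice. The spread was worked out from the gap between the mean over 6 mice and the group levels, read as means of logs and taking it as equal in both groups. These steps were tested on simulated data whose group values were means of logs, so that reading itself was not tested. The spread was compared there only for genes simulated with a wide spread, so the upper bounds were not tested. Members and gene lists were chosen with earlier results of these data known. The named genes are the 10 members, other monoamine genes past 1.2-fold at a mean of at least 100 or that define a transmitter type, and markers. No other monoamine gene was past that limit, and *Gch1*, *Maob*, *Hnmt*, *Hrh1* and *Drd5* are named as examples chosen after their values were seen, as were *Chrna6* and *Slc10a4*. Of the striatal markers, 1 is not reported here, and the counts and sums leave it out. Transcript lengths came from GENCODE M21 (GRCm38), matched by Ensembl identifier for 99.8% of genes, and promoters from RefSeq (GRCm38.p6). Coordinates of genes are those deposited. Scripts ran in Python 3.11.15 (numpy 2.4.6; pandas 2.3.3; matplotlib 3.10.9). Alternatives were protein-coding genes alone, a mean of at least 100, centring, a 1.5-fold limit, other transcript lengths and no constant in the spread.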

Additional observations from a re-analysis of the deposited data

How the results depend on the processing

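The deposited values give 1 level per group, so no replicate could be left out and no count test could be run. No paired analysis was possible because the tables hold group values and no columns of single mice. Among the 10 members, 4 were past 1.2-fold on chow and 3 on the HFD, and restriction to protein-coding genes, the minimum mean of 100 or centring could not change these counts, since all 10 pass both filters and the median log2 ratio was 0. At 1.5-fold they were 2 and 1. Over all genes 1945 were past the limit on chow and 1464 on the HFD. These counts came to 542 and 354 with a mean of at least 100, 1042 and 883 with protein-coding genes alone, and 191 and 94 at 1.5-fold, since fewer genes or a higher limit were used. Of the 3 members whose ratios differed by 1.2-fold between the diets, 0 did by 1.5-fold. The median level of the members in chow-fed WT mice, 12.6 CPM per kilobase, was 8.23 with the union of exons as the length. Without the constant of the table, which was chosen after seeing the data, 3 members in place of 1 had a spread larger than rounding on the HFD, and 4 in place of 3 on chow. The constant also enters every printed SD, SE and upper bound. Without it these would be larger, and the ratios to them smaller, by amounts not worked out. Rounding to 2 decimals limits a ratio to about the ranges printed. For 7 members on chow and 9 on the HFD only an upper bound on the spread between mice is known, and only with the constant taken off.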

Other observations

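After the values of *Slc6a3* were seen, 2 more genes known from dopamine neurons were looked at. *Slc10a4*, which encodes a vesicular protein of monoamine and cholinergic neurons, was at 19.9 CPM in WT and 12.9 CPM in *Gpr75*-/- mice on chow, 0.649 of the WT level (0.634 to 0.665 from rounding), and at 17.1 and 13.2 CPM on the HFD (0.771, 0.754 to 0.790). Its gap to the arithmetic mean was within rounding on both diets, and its log2 ratios were 2.06 and 1.31 times the upper bound of their SE. *Chrna6*, a nicotinic receptor subunit gene of midbrain dopamine neurons, was at 4.09 and 3.24 CPM on chow (0.792, 0.781 to 0.803) and at 5.78 and 4.21 CPM on the HFD (0.728, 0.717 to 0.740). Its gap was larger than rounding on both diets, with an approximate SD of 0.52 and 0.59 log2 units, and its log2 ratios were smaller than their SE.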
